A study of Mus musculus with 4 samples.

Results

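The coagulation and fibrinolysis genes were followed in RNA sequencing libraries of mouse liver, as a set of 34 genes named by symbol: clotting factors, the inhibitors that restrain them, the proteins that make and control plasmin, and the enzymes of the vitamin K cycle. Of these, 33 could be matched by symbol to the Ensembl genes counted, among 37315 gene rows, and all 33 had enough counts to be tested along with 14657 genes in all. Klkb1, the gene of plasma prekallikrein, was not matched and is not analysed here. The libraries came from C57BL/6 mice aged 23 weeks, 2 from wild type liver and 2 from liver with a synonymous change in Foxo1, the gene of a forkhead transcription factor restrained by insulin. Whether mutant mice carried the change on 1 or both alleles, which base was exchanged, and the animals' sex and feeding state, were not given in the labels. Nor do the labels say that the libraries of a group came from separate animals, so p-values measure the spread between these libraries, which may be technical. Total counts were 73551737 to 95908652 per library, and Foxo1 itself was at 44.0 and 54.8 in wild type and 33.6 and 53.4 normalised CPM (counts scaled to library size and TMM factor) in mutant libraries, where the groups overlapped. Hepatocyte markers were abundant, with albumin at 7.32% and 7.93% of all counts in wild type and 6.74% and 6.48% in mutant libraries. The log2 fold change of albumin, mutant over wild type, was −0.20 (SE 0.10, edgeR adjusted p = 0.908).

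Blood clots when thrombin, cut from prothrombin by factor Xa with its cofactor factor V, turns soluble fibrinogen into fibrin. Most of these plasma proteins are made by hepatocytes, and several of the proteases work only after vitamin K dependent carboxylation of their glutamates. Endothelial cells supply factor VIII, von Willebrand factor, thrombomodulin and much of the tissue factor pathway inhibitor, and plasmin, cut from hepatic plasminogen, dissolves the clot again. In bulk tissue, fewer cells of a type and less RNA per cell cannot be told apart.

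The promoters of the fibrinogen genes are shown because their transcripts were the 3 most abundant of the set per length, and those of F11 and Vkorc1 because they hold the core letters of a forkhead site. Each line gives the 250 bases before the RefSeq transcript start (GRCm38.p6), in the direction of the gene, with matches to the searched motifs in capitals. Fga lies at chr3:83025903-83026152 (plus strand), Fgb at chr3:83049864-83050113 (minus strand), Fgg at chr3:83007474-83007723 (plus strand), F11 at chr8:45262032-45262281 (minus strand) and Vkorc1 at chr7:127895618-127895867 (minus strand).
Fga: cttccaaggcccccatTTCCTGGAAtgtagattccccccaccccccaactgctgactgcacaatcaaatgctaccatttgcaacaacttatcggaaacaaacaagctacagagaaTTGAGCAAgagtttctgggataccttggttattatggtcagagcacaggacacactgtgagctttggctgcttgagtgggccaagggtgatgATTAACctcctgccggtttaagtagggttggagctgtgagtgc
Fgb: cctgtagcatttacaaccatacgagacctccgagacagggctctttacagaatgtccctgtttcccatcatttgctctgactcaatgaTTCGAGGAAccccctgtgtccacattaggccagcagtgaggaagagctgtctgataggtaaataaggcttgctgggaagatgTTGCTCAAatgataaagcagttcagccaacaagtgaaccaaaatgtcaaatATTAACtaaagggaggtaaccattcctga
Fgg: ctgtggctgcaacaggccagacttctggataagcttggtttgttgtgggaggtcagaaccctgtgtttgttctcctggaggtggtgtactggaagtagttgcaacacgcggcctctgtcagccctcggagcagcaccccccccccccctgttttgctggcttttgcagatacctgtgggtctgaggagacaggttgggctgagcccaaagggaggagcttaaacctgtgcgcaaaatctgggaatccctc
F11: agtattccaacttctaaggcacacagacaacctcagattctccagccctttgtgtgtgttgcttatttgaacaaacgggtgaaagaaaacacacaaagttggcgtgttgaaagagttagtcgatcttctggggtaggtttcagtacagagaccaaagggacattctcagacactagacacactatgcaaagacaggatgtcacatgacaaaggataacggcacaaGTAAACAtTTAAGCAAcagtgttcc
Vkorc1: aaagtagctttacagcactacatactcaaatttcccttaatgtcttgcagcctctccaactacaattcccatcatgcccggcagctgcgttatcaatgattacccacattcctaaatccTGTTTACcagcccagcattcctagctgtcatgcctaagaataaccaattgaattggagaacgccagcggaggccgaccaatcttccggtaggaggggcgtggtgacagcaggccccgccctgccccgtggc

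Motifs were searched on both strands as letters only. TTNNGCAA, a loose C/EBP site that contains the palindrome TTGCGCAA, occurred before Fga and Fgb and in 9 of 27 promoters that RefSeq gave for 26 members, and in 9.56% of all 32851 promoters of the same length. TTCNNNGAA, a STAT site, occurred in 4 of the 27 (Fga, Fgb, F9 and Pros1) against 7.02% of all promoters, and GTTAAT, the core of an HNF1 site, in 4 (Fga, Fgb, F13b and Proz) against 6.43%. The forkhead letters TGTTTAC occurred in 3, 25 to 19 bases before the start of F11, 131 to 125 before Vkorc1 and 21 to 15 before the unmatched Klkb1, against 3.17% of all. CAAAGTNCA, an HNF4 site, occurred in 1, before F9, against 1.19%, and TTCNNGAA in 2, before F8 and Klkb1, against 7.17%. The full HNF1 palindrome and TTGCGCAA were in none of the 27, and they occurred in 0.00913% and 0.164% of all promoters. The window before Fgg held no match to any of these letters.

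Messages for the clotting system took a near constant part of the liver transcriptome. The 33 genes summed to 26303 and 27264 normalised CPM in the wild type libraries and to 27031 and 28114 in the mutant libraries. As a share of raw counts, without the TMM factors, they made up 2.69%, 2.68%, 2.68% and 2.81% in the same order. In normalised CPM wild type replicate 2 lay above mutant replicate 1, so the groups overlapped. None of the 33 genes passed an adjusted p below 0.05 in edgeR's quasi-likelihood test, in which 0.341% of all genes passed (0.280% higher and 0.0614% lower in mutant liver). DESeq2 and limma-voom, which called 0.764% and 0.0478% of all genes, also called 0 members. At an unadjusted p below 0.05 there were 3 members of 33, against 6.19% of all genes. Of these, Pros1 and Thbd were higher, as were 3.97% of all genes, and Ggcx was lower, as were 2.22%. DESeq2 and limma-voom each gave Pros1 and Thbd alone, against 5.01% and 5.99% of all genes.

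Differences were small and mostly positive. The median log2 fold change (mutant over wild type) of the members was 0.056, against −0.0013 over all genes tested. It was above 0 in 25 of 33, against 49.7% of all genes, and below 0 in 8, against 50.3%. By role, those above 0 were 4 of 4 genes of clot formation, 3 of 3 cofactors, 3 of 4 contact factors and 5 of 8 anticoagulants. They were also 4 of 6 genes of fibrinolysis and 0 of 2 of the vitamin K cycle. In the group of tissue factor and vitamin K dependent proteins (F2, F7, F9, F10 and Proz) they were 6 of 6. The vitamin K dependent Pros1 (above 0) and Proc (below 0, at −0.037) were counted among the anticoagulants. The count above 0 was 18 of 33 without wild type replicate 1 and also without mutant replicate 2, with medians of 0.0066 and 0.012. Wild type replicate 1 was the lowest of the 4 libraries in 14 members and mutant replicate 2 the highest in 16. The median size of the log2 difference over members was 0.089 between the wild type libraries and 0.10 between the mutant libraries, and 0.092 to 0.12 across groups. In 8 members both mutant libraries lay above both wild type libraries and in 5 below, against 17.0% of all genes in each direction.

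For well expressed members the counts bounded the difference between these libraries closely. In all 25 members with a mean of at least 10 normalised CPM, the 95% confidence interval of the fold change lay within 1.5-fold in either direction. Their log2 fold changes ran from −0.21 to 0.23, with a median SE of 0.10. The median SE was also 0.10 over all 6927 tested genes at that level. The 8 members below that level had SEs from 0.16 to 0.63, and 6 of all 33 intervals reached beyond 1.5-fold: those of F3, Procr, Thbd, Plat, Plau and Vkorc1.

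**Figure D1:**
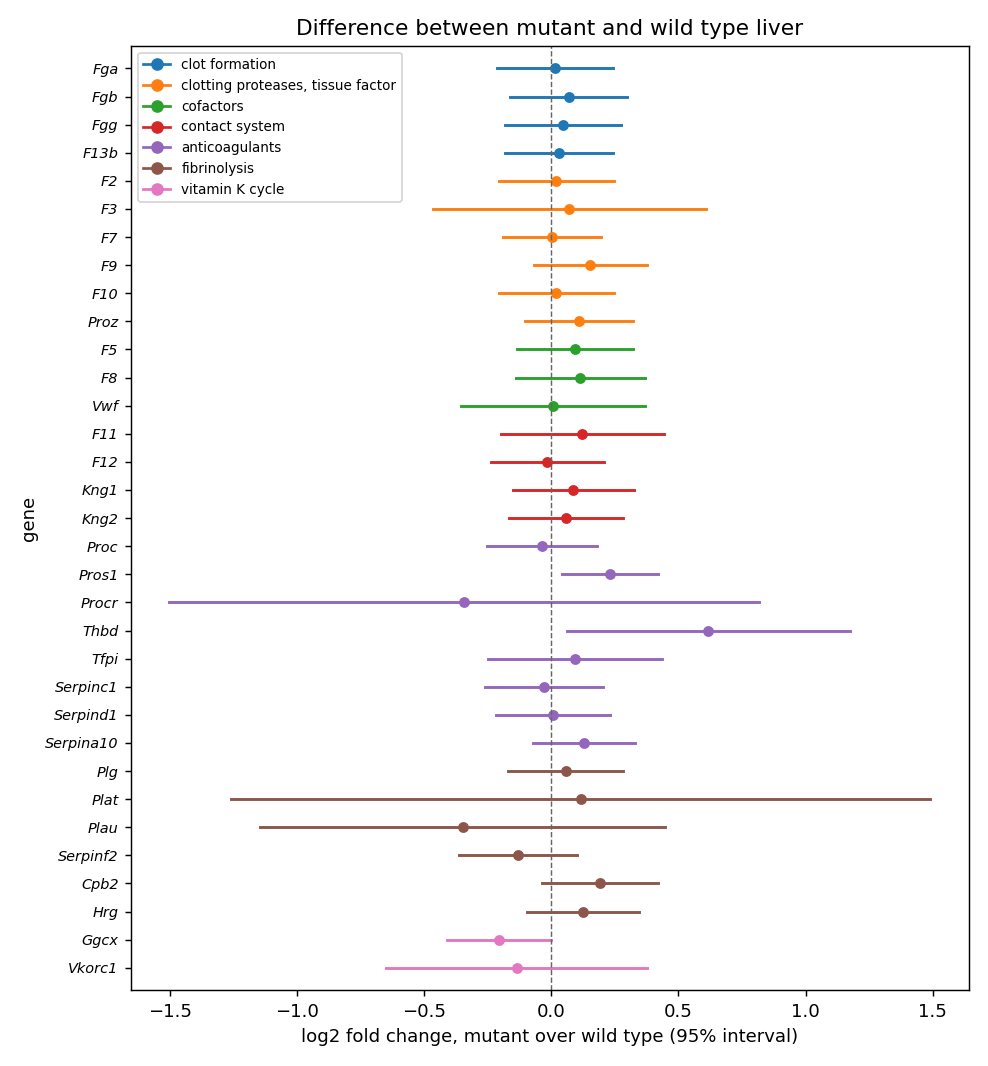
Log2 fold change of mutant over wild type liver for each of 33 genes (rows, coloured by role), as a point with its 95% confidence interval from edgeR. All intervals but those of Pros1, Thbd and Ggcx cross 0, and the wide ones belong to scarce transcripts such as Plat, with an interval of −1.26 to 1.49.

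Levels differed widely between genes. Per kilobase of the principal annotated transcript, from here on called the level per length, Fga had 1856, Fgg 1833 and Fgb 1166 normalised CPM per kb, followed by Kng1 at 1135, Plg at 962 and F2 at 805. Fga, Fgg and Fgb ranked 41, 43 and 68 among 21131 protein-coding genes on that scale. At the other end stood Vwf at 0.502, Plau at 0.313, Procr at 0.207 and Plat at 0.091. The neighbours Fga and Fgg did not keep their order in all libraries, whereas Fgb was below both in each. The place of Fgb below Fgg rests on annotated transcript lengths of 3.81 and 1.695 kb. In normalised CPM, without regard to length, Fgb was above Fgg in each library.

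**Figure D2:**
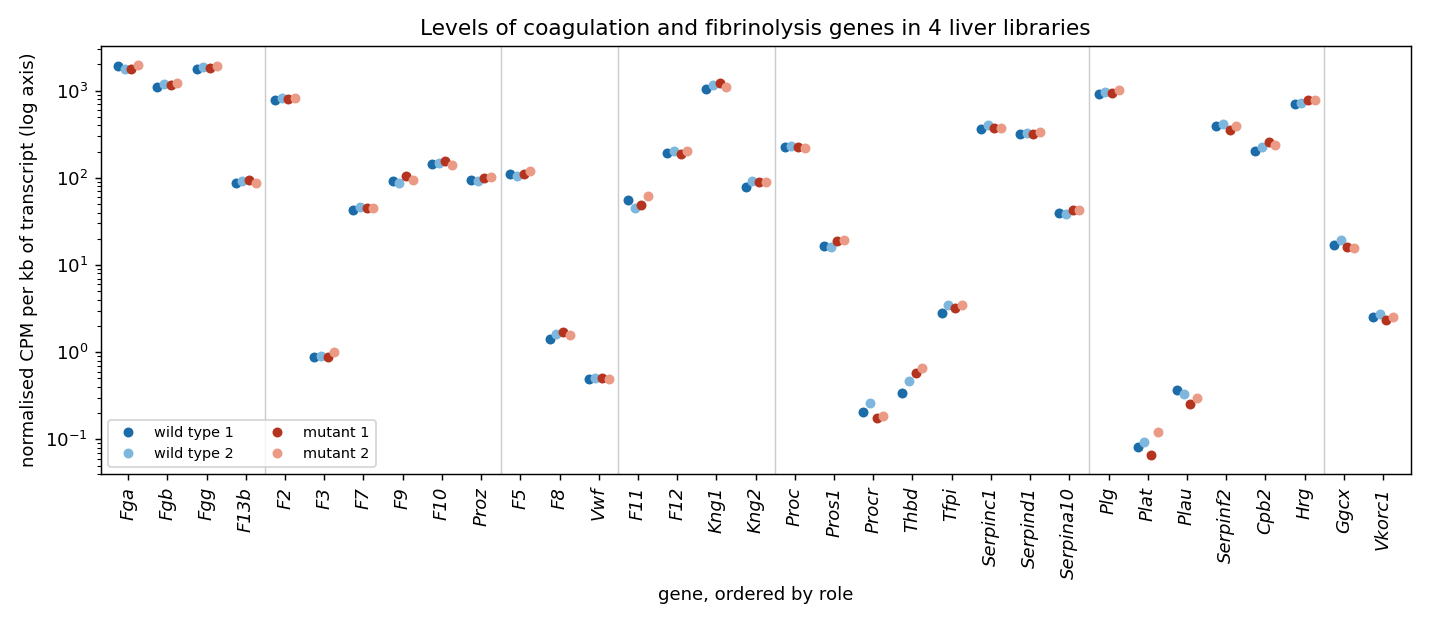
Level of each gene per kb of transcript (log axis) in the 4 liver libraries, ordered by role, with vertical lines between roles. Points of 1 gene lie close together beside the distance between genes, from 1856 for Fga to 0.091 for Plat on average.

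Fibrinogen is a hexamer of alpha, beta and gamma chains encoded by Fga, Fgb and Fgg, which lie side by side on mouse chromosome 3 (mm10, from 83007724 at the start of Fgg to 83049863 at the 5′ end of Fgb). Fga was at 4916 and 4637 normalised CPM in wild type and 4612 and 5044 in mutant libraries, with mutant replicate 1 lowest and mutant replicate 2 highest. Its log2 fold change was 0.015 (SE 0.11), and the 95% interval of the change was −13.8% to 18.4%. Fgb was at 4146 and 4528 in wild type and 4384 and 4711 in mutant libraries, and Fgg at 2977 and 3139, and 3049 and 3261. The groups overlapped for each chain. The intervals were −10.6% to 23.0% for Fgb and −11.8% to 20.7% for Fgg. The ratio of Fgg to Fgb, both per length, was 1.61 and 1.56 in wild type and 1.56 and 1.56 in mutant libraries, whereas Fga to Fgb was 1.75 and 1.51, and 1.55 and 1.58. The 3 chains together made up 45.8% and 45.1% of the members' summed normalised CPM in wild type and 44.6% and 46.3% in mutant libraries. F13b, the carrier subunit of the fibrin crosslinking factor XIII, was at 206 and 217 in wild type and 224 and 208 in mutant libraries (log2 fold change 0.031, SE 0.098). Exons of the opposite-strand gene Gm30097 cover 5.49% of the exon length of Fgg, and the kit does not mark strand.

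Fibrinogen is itself induced in the acute phase response, and other acute phase messages were higher in the same mutant libraries. Of 18 acute phase genes outside clotting, 17 had log2 fold changes above 0 (median 0.36), against 49.7% of all genes. Orm2 and Apcs rose past the threshold (edgeR adjusted p = 0.0011 and 0.0312), as did 0.280% of all genes. The summed level of all 18 was 10809 and 11905 normalised CPM in wild type and 13878 and 14465 in mutant libraries, without overlap. Log2 fold changes over the 18 genes ran from −0.031 to 2.64. Hemopexin (Hpx), expressed at a similar count level to fibrinogen, was at 2203 and 2670 in wild type and 3268 and 3697 in mutant libraries, without overlap (log2 fold change 0.52, SE 0.12, edgeR adjusted p = 0.174). Abundant genes of the list other than Hpx differed less: 0.28 for Hp (SE 0.11), 0.23 for Itih4 (SE 0.11) and 0.12 for Cp (SE 0.10) on the log2 scale. None of these 3 passed the threshold. Fibrinogen chains had log2 fold changes of 0.015 to 0.068. The difference between these genes and fibrinogen was not tested.

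Among the vitamin K dependent proteases, prothrombin (F2) was the most abundant per length, at 1545 and 1634 normalised CPM in wild type and 1578 and 1645 in mutant libraries (log2 fold change 0.020, SE 0.10). The interval of its change was −13.3% to 18.5%. F10, which encodes the protease that cuts prothrombin, was at 357 and 374 in wild type and 389.8 and 351 in mutant libraries. F7, the partner of tissue factor, was at 80.6 and 86.1, and 83.6 and 83.4. The groups overlapped for both. F9, the X-linked gene whose loss causes haemophilia B in humans, was at 253 and 237 in wild type and 286 and 259 in mutant libraries, without overlap but with a log2 fold change of only 0.15 (SE 0.10, edgeR adjusted p = 0.971). Protein Z (Proz), a cofactor for inhibition of factor Xa, was at 315 and 313 in wild type and 338 and 339.9 in mutant libraries (log2 fold change 0.11, SE 0.098), higher without overlap. F7, F10 and Proz lie next to each other on chromosome 8 (mm10, 13026034 to 13076026). Tissue factor (F3), which starts clotting outside vessels, was scarce, at 1.66 and 1.70 in wild type and 1.65 and 1.89 in mutant libraries.

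Of the cofactors, F5 was far more abundant than F8 and Vwf, at 112 against 1.58 and 0.502 normalised CPM per kb. F5 was at 829 and 779.7 normalised CPM in wild type and 832 and 885 in mutant libraries, with wild type replicate 1 and mutant replicate 1 nearly equal and a log2 fold change of 0.093 (SE 0.10). Exons of Gm16548 on the opposite strand cover 3.53% of its exon length. F8, lost in haemophilia A in humans, was at 13.9 and 15.95 in wild type and 16.9 and 15.3 in mutant libraries, and von Willebrand factor (Vwf), which carries factor VIII in plasma, at 4.41 and 4.43, and 4.495 and 4.39. Vwf varied least between libraries, 1.02-fold from lowest to highest. It had only 320 to 428 counts per library, and the interval of its change was −21.9% to 29.2%. Per length F8 was 2.83 to 3.39 times as abundant as Vwf in the 4 libraries. Markers of sinusoidal endothelium, a source of factor VIII in liver, summed to 303 and 314 in wild type and 306 and 299.7 normalised CPM in mutant libraries, with 4 of 12 positive, none at 0 counts and a median log2 fold change of −0.024.

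The contact system starts clotting on charged surfaces and releases bradykinin from kininogen. Kng1 was its most abundant message, at 1921 and 2102 normalised CPM in wild type and 2244 and 2027 in mutant libraries (log2 fold change 0.086, SE 0.11). The second mouse kininogen gene, Kng2, was at 182 and 210.3 in wild type and 205 and 203 in mutant libraries. Per length it stood at 0.0727 to 0.0799 of Kng1 in all 4. Of 150-base stretches of the longest Kng1 transcript 2.14% also occur in Kng2, and of 50-base stretches of Kng2 18.2% occur in Kng1, so their split is slightly uncertain. F12 was at 381 and 399.7, and 372 and 400.4, with a log2 fold change of −0.016 (SE 0.10). F11, whose promoter is shown above, was the least repeatable of the well expressed members: it was at 126 and 101 in wild type and 109 and 138 in mutant libraries, a 1.25-fold gap within wild type and 1.26-fold within mutant liver. Its log2 fold change of 0.12 (SE 0.14) was smaller than that spread.

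Both members with an unadjusted p below 0.05 in the mutant-higher direction were anticoagulants. Protein S (Pros1), the cofactor of activated protein C and of tissue factor pathway inhibitor, was at 54.6 and 53.1 normalised CPM in wild type and 62.3 and 64.2 in mutant libraries. Both mutant libraries were above both wild type libraries, and the libraries of a group differed by 1.03-fold. The log2 fold change was 0.23 (SE 0.087), with an interval of 3.02% to 33.9% for the change, an unadjusted p of 0.0201 and an edgeR adjusted p of 0.626. Thrombomodulin (Thbd), the endothelial receptor that turns thrombin towards activating protein C, had counts of 105 and 127 in wild type and 204 and 208 in mutant libraries. In normalised CPM these were 1.27 and 1.76, and 2.14 and 2.49, without overlap. The log2 fold change was 0.62 (SE 0.26, unadjusted p = 0.0326, edgeR adjusted p = 0.721), and it was 0.40 without wild type replicate 1 and 0.87 without wild type replicate 2. Macrophage markers were also higher. In 12 of 12 Kupffer cell markers the mutant libraries were higher without overlap, against 17.0% of all genes. Of these, 6 passed the threshold, against 0.280%, and none was at 0 counts. Their summed levels were 342 and 363 in wild type and 517 and 597 in mutant libraries. Of other lists, 5 of 5 tested red cell and 4 of 5 platelet markers had positive log2 fold changes, against 49.7% of all genes. For stellate cell, cholangiocyte and hepatocyte markers these were 4 of 10, 0 of 5 and 3 of 9. Sinusoidal endothelial markers went both ways, with 2 of 12 higher and 2 lower without overlap, against 17.0% of all genes in each direction. The part of other cells in the difference of Thbd was not tested.

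Of the other anticoagulants, all but Procr had a 95% interval of the fold change within 1.5-fold in either direction. Antithrombin (Serpinc1), the main inhibitor of thrombin and factor Xa, was at 1788 and 2006 normalised CPM in wild type and 1863 and 1854 in mutant libraries, with an interval of −16.6% to 15.1% for the change. Of 150-base stretches of its longest annotated transcript, 57.9% also lie in Zbtb37 on the opposite strand, which was at 4.10 to 4.97, so the level per length of 378 is uncertain. Protein C (Proc) was at 355 and 367 in wild type and 355 and 349 in mutant libraries. Per length Proc was 13.6 and 14.5 times Pros1 in wild type and 11.9 and 11.4 times in mutant libraries. Heparin cofactor II (Serpind1) was at 695 and 725, and 693 and 733. The protein Z dependent inhibitor of factor Xa (Serpina10) was at 139 and 134 in wild type and 149 and 150.03 in mutant libraries, without overlap (log2 fold change 0.13, SE 0.093, edgeR adjusted p = 0.979). Tissue factor pathway inhibitor (Tfpi) was at 5.74 and 7.08, and 6.56 and 7.10. The endothelial protein C receptor (Procr) rested on 25 to 30 counts per library, with 0.326 and 0.415 in wild type and 0.284 and 0.299 normalised CPM in mutant libraries. The log2 fold change of Procr was −0.34, with the SE at 0.53.

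Plasminogen (Plg), the precursor of plasmin, was at 2556 and 2646 normalised CPM in wild type and 2627 and 2782 in mutant libraries, with a log2 fold change of 0.056 (SE 0.10) and a 95% interval of −0.17 to 0.28 on the log2 scale. Exons of Slc22a3 on the opposite strand cover 11.3% of its exon length. The plasmin inhibitor Serpinf2 was at 866 and 909 in wild type and 767 and 855 in mutant libraries, lower without overlap (log2 fold change −0.13, SE 0.11, edgeR adjusted p = 0.997). Cpb2 encodes a carboxypeptidase that trims the lysines on fibrin to which plasminogen binds. It was at 301 and 337 in wild type and 377 and 352 in mutant libraries, higher without overlap, with a log2 fold change of 0.19 (SE 0.11), an unadjusted p of 0.0941 and an edgeR adjusted p of 0.919. Histidine-rich glycoprotein (Hrg), which binds plasminogen and heparin, was at 1233 and 1237 in wild type and 1351 and 1339 in mutant libraries. The libraries of a group lay within 1.01-fold for Hrg, but its log2 fold change was 0.12 (SE 0.10, edgeR adjusted p = 0.997). The plasminogen activators were near the lower limit: Plau had 56 to 72 and Plat 16 to 26 counts per library. Plau was at 0.868 and 0.775 in wild type and 0.599 and 0.693 normalised CPM in mutant libraries (log2 fold change −0.35, SE 0.37), and Plat at 0.205 and 0.235, and 0.168 and 0.311. A 2-fold difference of Plat in either direction was within its interval.

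Both members of the vitamin K cycle, Ggcx and Vkorc1, were lower in the mutant libraries without overlap, as were 17.0% of all genes, and neither passed the threshold. Vkorc1l1, a paralog of Vkorc1 from the wider pathway list, was at 31.8 and 29.9 normalised CPM in wild type and 33.7 and 34.1 in mutant libraries, higher without overlap (log2 fold change 0.14, SE 0.092). Per length it was at 10.4 against 2.55 normalised CPM per kb for Vkorc1. The gamma-glutamyl carboxylase Ggcx, which modifies F2, F7, F9, F10, Proc, Pros1 and Proz, was at 50.2 and 56.6 normalised CPM in wild type and 46.9 and 45.7 in mutant libraries. Its log2 fold change was −0.21 (SE 0.094, unadjusted p = 0.0475, edgeR adjusted p = 0.795), with an interval of −24.7% to −0.184% for the change. It did not stay below an unadjusted p of 0.05 with DESeq2 or limma-voom. The vitamin K epoxide reductase Vkorc1 was at 1.92 and 2.08 in wild type and 1.73 and 1.90 in mutant libraries, on 150 to 165 counts per library (log2 fold change −0.14, SE 0.24). Exons of Gm21974 on the same strand cover 47.7% of the exon length of Vkorc1, and Gm21974 was listed at 0 in all 4 libraries. Reads from the shared exons fit both genes, how the authors' counting treated them was not stated, and the part of this overlap in the low level of Vkorc1 was not tested.

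**Figure D3:**
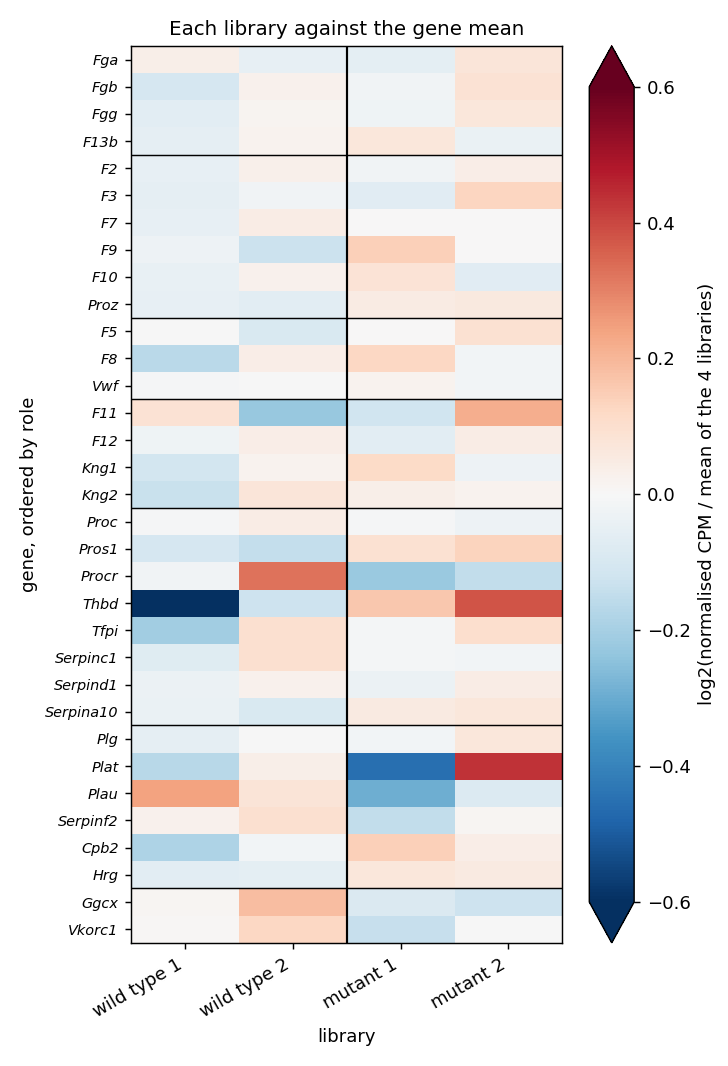
Normalised CPM of each gene in each library, as log2 of its ratio to the gene's mean over 4 libraries (colour, from blue below to red above, with the scale ending at 0.6 in either direction), wild type left and mutant right of the vertical line. The groups do not overlap in 13 of 33 genes, 8 higher and 5 lower in mutant liver, against 34.1% of all genes, and Plat, Thbd and F11 differ most within groups.

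Other genes of the pathway gave no calls either. Of 32 further genes, among them receptors for thrombin and plasminogen, secretion chaperones of factors V and VIII, and protease inhibitors, 26 were tested. Of these, 0 passed an adjusted p below 0.05 in edgeR, against 0.341% of all genes. The log2 fold change was positive in 15 and negative in 11, against 49.7% and 50.3% of all genes, with a median of 0.050. At an unadjusted p below 0.05 in edgeR there were 3 of the 26, against 6.19% of all genes, and F13a1 and S100a10 are given here. F13a1, the catalytic subunit of factor XIII and a product of macrophages and platelets, was at 0.0482 and 0.0277 normalised CPM in wild type and 0.252 and 0.167 in mutant libraries (log2 fold change 2.41, SE 0.86, edgeR adjusted p = 0.560). Counts of F13a1 were few, 2 to 24 per library. S100a10, a plasminogen receptor subunit, was at 54.4 and 60.02 in wild type and 53.2 and 41.6 in mutant libraries (−0.27, SE 0.12, edgeR adjusted p = 0.794), with its partner Anxa2 at 9.31 and 9.12, and 8.01 and 8.53. Platelet and megakaryocyte markers were scarce, with 5 of 10 tested, of which 4 were positive and 0 past the threshold (median log2 fold change 0.44). Pf4 was at 0.253 and 0.304 normalised CPM in wild type and 0.389 and 0.622 in mutant libraries, and Ppbp at 0.0241 and 0.125, and 0.242 and 0.0956. The list summed to 10.7 and 13.2 normalised CPM in wild type and 12.5 and 14.5 in mutant libraries. Most of this was Clec1b alone, at 7.84 and 9.19 in wild type and 8.65 and 11.2 in mutant libraries. The part of platelets and of macrophages in the values of F13a1 was not tested.

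**Figure D4:**
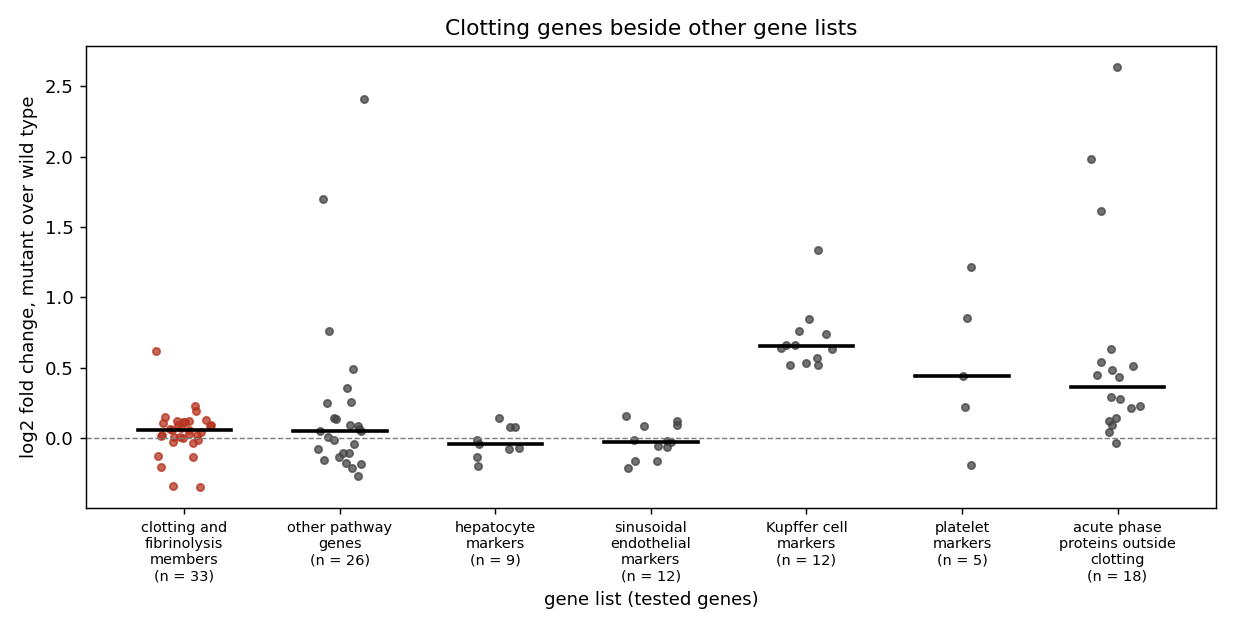
Log2 fold change of mutant over wild type liver for tested genes of each list (points, spread sideways for visibility) with the list's median as a bar. The 33 clotting and fibrinolysis genes have a median of 0.056, and other pathway genes 0.050. Medians were −0.042 for hepatocyte and −0.024 for endothelial markers. Those of Kupffer cell markers, platelet markers and acute phase proteins were 0.65, 0.44 and 0.36.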

How the data were processed

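Per the labels' protocols, liver mRNA was purified on Dynabeads after TRIzol extraction, and about 100 ng entered an Illumina TruSeq kit that does not mark strand, followed by paired 150 bp sequencing. The authors deposited raw counts of reads for each Ensembl gene; the submitters' processing notes name TopHat2 2.1.1, HTSeq 0.6.0 and mm10. They state neither counting mode nor annotation release.

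The test was edgeR 4.0.16 (R 4.3.3) with filterByExpr at a minimum count of 10, TMM scaling, glmQLFit and glmQLFTest with robust estimation, group as the only term, Benjamini-Hochberg adjustment over all 14657 genes and a threshold of 0.05. The SE is the size of the log2 fold change divided by the square root of F, and intervals are at 95%. A library's floor of 3 counts lay between 0.0313 and 0.0408 CPM, for counting error only. The biological coefficient of variation was 13.1%. No pair of libraries was identical within sampling noise (chi-square of 61.7 to 106 per gene). Symbols, positions and transcript lengths come from GENCODE on the build that matches mm10 (95% of gene rows had a symbol), and promoters from RefSeq. The fit was tested on simulated data. DESeq2 1.42.0 and limma 3.58.1 were alternatives.

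The members and the comparison lists were chosen with earlier results of these data known. All members measured are named. Of the other pathway genes, those with an unadjusted p below 0.05 are named, except 1 that is not reported here. Anxa2, Vkorc1l1, Hpx, Hp, Itih4, Cp, Orm2, Apcs, Pf4, Ppbp and Clec1b were added after their values were seen. Red cell, stellate cell, cholangiocyte and hepatocyte markers had median log2 fold changes of 0.45, −0.042, −0.063 and −0.042 over 5, 10, 5 and 9 tested genes, with 1, 0, 0 and 0 past the threshold.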

Additional observations from a re-analysis of the deposited data

How the results depend on the processing

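No member passed the threshold under any alternative run, namely RLE and upper-quartile scaling, no filter, 1 CPM in 2 libraries (30 members tested), DESeq2, limma-voom, no robust estimation, the replicate block, thinned counts, library sizes without albumin and mitochondrial genes, an adjusted p below 0.1, or leaving out a library. The number of genes past the threshold, 50, was 258 with no filter, 24 with 1 CPM in 2 libraries, 112 with DESeq2, 7 with limma-voom, 8 with no robust estimation and 111 with the replicate block, and ranged from 3 to 17 with a library left out; the cause was not tested. Replicate numbers did not pair the libraries (correlation of deviations of 0.0033 over all genes), and with the replicate block 2 members were below an unadjusted p of 0.05, Pros1 and Thbd. With a library left out this number ranged from 0 to 1: Ggcx without wild type replicate 1, Thbd without wild type replicate 2, Pros1 without mutant replicate 1 and none without mutant replicate 2. The lone library of a group is then assumed to vary like the other group. The members' median then ranged from 0.0066 to 0.067.

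The sign of 18 members held with each library left out, and that of 15 turned, within ranges of −0.053 to 0.079 for Fga, −0.0065 to 0.093 for Fgg, −0.024 to 0.081 for F13b, −0.020 to 0.061 for F2, −0.032 to 0.17 for F3, −0.043 to 0.051 for F7, −0.058 to 0.091 for F10, −0.011 to 0.022 for Vwf, −0.059 to 0.29 for F11, −0.073 to 0.036 for F12, −0.042 to 0.16 for Kng2, −0.052 to 0.25 for Tfpi, −0.11 to 0.056 for Serpinc1, −0.036 to 0.046 for Serpind1 and −0.39 to 0.50 for Plat. Of 327 values under the other alternatives 1 turned, that of F7 with thinned counts (−0.0036). Counts were lowest for Plat (16 to 26) and Procr (25 to 30).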
